A study of Mus musculus with 8 samples.

Results

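The genes described here encode the machinery of DNA replication and deoxynucleotide synthesis. They comprise 41 genes listed by symbol for these functions. All 41 were found on the arrays by their annotated symbol, out of 18193 genes there, and all 41 passed the filter on low values that left 11178 tested genes. Each gene is represented by 1 probe set, the one with the highest mean over the arrays.

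RNA from mouse CD4 helper T cells was hybridised to 8 Affymetrix arrays, 2 for each of 4 cell types. T follicular helper (Tfh) cells, which help B cells in germinal centres, were CD4+CXCR5+ cells sorted from the spleens of C57BL/6 mice 7 days after KLH immunization and restimulated with anti-CD3 for 4 h. Th1, Th2 and Th17 cells were grown from naive CD4 cells of spleen and lymph node, taken from C57BL/6 mice 6 to 8 weeks old that carried the OT-II T cell receptor transgene, and were activated for 5 days with OT-II peptide and antigen-presenting cells. IL-12 at 10 ng/ml with anti-IL-4 was added for Th1, IL-4 at 10 ng/ml with anti-IFNg for Th2, and IL-6 at 20 ng/ml with TGFb, anti-IL-4 and anti-IFNg for Th17. Cell type, source and handling therefore changed together between Tfh and the cultured cells. Nothing in the labels tells whether the 2 samples of a group are independent cultures or animals, so p-values measure only the spread between these samples, which may be technical.

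Replication begins when the origin recognition complex, with Cdc6 and Cdt1, loads the Mcm2 to Mcm7 helicase onto DNA in G1. Cdc45, the GINS complex and Mcm10 then switch the helicase on, and primase, the polymerases, the sliding clamp Pcna and its loader copy the strands while replication protein A covers single-stranded DNA. Ribonucleotide reductase, thymidylate synthase and thymidine kinase supply the building blocks. Transcripts of many of these genes are known to peak around the start of S phase under control of E2F factors, and activated T cells turn them on as they leave quiescence.

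The lineage markers were checked against the labels. Cxcr5, Bcl6 and Pdcd1 were called higher in Tfh under all 4 scalings, and Ifng was highest in Th1, Il4 in Th2 and Il17a in Th17. The other measured lineage genes did not follow the labels as closely: Tbx21, the Th1 factor, read 10.66 and 10.59 in Tfh and 10.89 and 9.43 in Th1, and Gata3, the Th2 factor, read 10.67 and 10.52 in Tfh and 10.44 and 11.13 in Th2. T cell markers were present throughout (summed level 16.10 to 16.17 on the log2 scale in Tfh and 14.99 to 15.66 in the cultured arrays; 7 of 9 listed genes measured). The Tfh arrays had a different distribution of deposited values, with the median tested gene 0.84 log2 units higher than in culture, so differences are also given relative to that median gene. Of the 13 listed myeloid markers, 8 were called higher in Tfh, where 43.7% of all tested genes were. Neutrophil granule genes were among the 8, with Ngp at 13.13 and 13.02 in Tfh against 2.12 to 4.68 in culture. Csf1r, Itgam, Adgre1, Cd14 and Fcgr3 were not called, and each read highest on a cultured array. Fcgr3, for example, read 6.78 and 6.73 in Tfh and 9.89 in Th2 replicate 1. The 13 summed to 16.05 to 16.11 in Tfh against 6.30 to 7.03 in Th1, 8.13 to 12.69 in Th2 and 8.18 to 10.33 in Th17. B cell markers (8 of 10 measured) summed to 9.93 to 9.95 in Tfh and 6.38 to 9.82 in the cultured arrays. Cd22, Cd79a and Cd79b were called higher in Tfh, Cd22 under all 4 scalings (7.07 and 7.06 in Tfh, 3.44 to 5.43 in culture). Cd79b overlapped, at 8.30 and 8.38 in Tfh and 8.95 in Th2 replicate 2. Ms4a1 read 7.90 and 7.97 in Tfh against 3.42 to 7.59. Ebf1 went the other way, at 3.65 and 3.62 in Tfh against 3.86 to 6.75 in culture, while Pax5 was below the filter value of 3.13 on all 8 arrays. CD8 and NK cell markers (7 of 8 measured) summed to 9.26 to 9.39 in Tfh and 9.91 to 15.40 in culture. The highest sums, in Th2, rested on Gzma, which read 15.37 and 14.52 there and 7.46 and 7.73 in Tfh. Cd8a went the other way, at 4.79 and 4.90 in Tfh against 3.38 to 4.22 in culture. Of the 6 tested markers, Cd8a alone was above all cultured arrays in Tfh, and the other 5 overlapped. Erythroid markers (6 of 8 measured) summed to 11.47 to 11.52 in Tfh and 13.31 to 13.85 in culture. That sum rests on the transferrin receptor Tfrc, which proliferating cells also express and which was called lower in Tfh under all 4 scalings (11.50 and 11.45 against 13.31 to 13.85); Hba-a1, Alas2, Klf1 and Epor were below the filter value on all 8 arrays and Gata1 on 6. The part that RNA from other cell types plays in the differences between Tfh and the cultured cells was not tested. In such bulk samples, fewer cells carrying a transcript and less of it per cell cannot be told apart.

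Promoter sequence was compared across the genes because they are known to move together. RefSeq's mouse table (GRCm38.p6) held a promoter for 35 of the 41 genes. Within the 250 bases before each start, the E2F letters TTTGGCGC, TTTCCCGC, TTTCGCGC and TTTGCCGC were sought on both strands; these can overlap each other. They occurred in 7 of the 35 (20.0%), namely Cdc6, Mcm5, Mcm6, Mcm7, Orc1, Pola1 and Rfc3, against 2.2% of 27025 genes with a promoter in the table. The letters CCAAT occurred in 21 of the 35, against 37.5% of all, and the CHR letters TTTGAA in 4 of the 35 (11.4%) against 18.3%. These matches describe the letters in this window only. Below are the 250 bases before the start of 4 genes on which the results turn, written 5′ to 3′ on the gene's strand with E2F letters in capitals. Orc1 and Cdc6 had the largest differences between Tfh and the cultured cells, while Rpa1 was higher in Tfh and Mcm6 read higher there without being called.
Orc1, chr4:108579204-108579453, plus strand: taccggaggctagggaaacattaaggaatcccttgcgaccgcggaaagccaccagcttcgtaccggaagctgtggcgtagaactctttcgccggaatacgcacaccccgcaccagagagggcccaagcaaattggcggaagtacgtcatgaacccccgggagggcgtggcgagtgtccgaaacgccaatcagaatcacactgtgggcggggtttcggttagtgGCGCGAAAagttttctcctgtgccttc
Cdc6, chr11:98907901-98908150, plus strand: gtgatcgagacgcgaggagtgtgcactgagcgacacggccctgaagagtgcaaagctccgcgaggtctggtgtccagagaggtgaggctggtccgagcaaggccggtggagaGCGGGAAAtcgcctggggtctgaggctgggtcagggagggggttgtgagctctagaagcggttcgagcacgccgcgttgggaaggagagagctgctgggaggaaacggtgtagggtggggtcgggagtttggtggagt
Mcm6, chr1:128359706-128359955, minus strand: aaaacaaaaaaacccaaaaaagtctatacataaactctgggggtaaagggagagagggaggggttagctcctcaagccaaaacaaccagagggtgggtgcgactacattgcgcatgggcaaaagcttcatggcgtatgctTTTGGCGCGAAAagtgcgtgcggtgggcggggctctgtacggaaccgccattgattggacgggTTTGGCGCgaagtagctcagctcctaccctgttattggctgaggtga
Rpa1, chr11:75348384-75348633, minus strand: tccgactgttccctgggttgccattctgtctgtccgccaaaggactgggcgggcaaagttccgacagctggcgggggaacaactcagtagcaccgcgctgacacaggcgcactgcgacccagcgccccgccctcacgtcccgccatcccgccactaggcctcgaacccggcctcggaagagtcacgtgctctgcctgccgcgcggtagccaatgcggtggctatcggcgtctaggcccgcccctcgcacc
The single match of Orc1 began at position -27 relative to the start, and that of Cdc6 at -138. Mcm6 had 3 matches, the first at -110 and overlapping the next, and Rpa1 had none. E2F letters were thus found both before genes that were far lower in Tfh and before Mcm6, which was not lower as deposited. Of the other genes with these letters, Rfc3 was called lower and Mcm5, Mcm7 and Pola1 were not called. The printed genes were picked by their differences, and whether E2F letters go with the difference was not tested.

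Across the whole group, transcripts for loading and switching on the helicase, for ribonucleotide reductase and for cyclin E2 were lower in Tfh than in the cultured cells, whereas no Mcm2 to Mcm7 subunit, polymerase or primase gene was called either way as deposited. That contrast depended on the scaling: after quantile normalization 2 of the 6 Mcm genes and 6 of the 7 polymerase and primase genes were called lower, and after shifting arrays over the tested genes 4 and 6 were. A gene was called when its adjusted p (limma, Benjamini-Hochberg over the 11178 tested genes) was under 0.05 and its difference was at least 1 log2 unit. Set against the averaged Th1, Th2 and Th17 cells, 14 of the 41 were called lower in Tfh (Ccne2, Cdc45, Cdc6, Gins1, Gins2, Mcm10, Orc1, Orc2, Orc6, Rfc3, Rpa2, Rrm1, Rrm2 and Tk1), where 6.66% of all tested genes were called lower. Only Rpa1 was called higher among the 41, where 43.7% of all tested genes were called higher. The other 26 were not called either way. The median difference of the 41 was -0.66, against 0.84 over all tested genes, and 40 of the 41 lay below the median gene, Rpa1 being the exception. Both Tfh arrays lay below all 6 cultured arrays for 24 of the 41 (13.8% of all tested genes) and above all 6 for 5 (60.5%), and the ranges overlapped for 12. The 14 lower calls all held under each of 4 scalings of the arrays (6.63% of all tested genes did so), while the Rpa1 call did not. Other scalings added lower calls: 31 lower and 1 higher after quantile normalization (22.0% and 15.7% of all tested genes), 21 lower and 1 higher after shifting arrays to 1 median over all probe sets (11.0% and 32.4%), and 34 lower and 0 higher after shifting over the tested genes (28.9% and 14.8%).

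**Figure D1:**
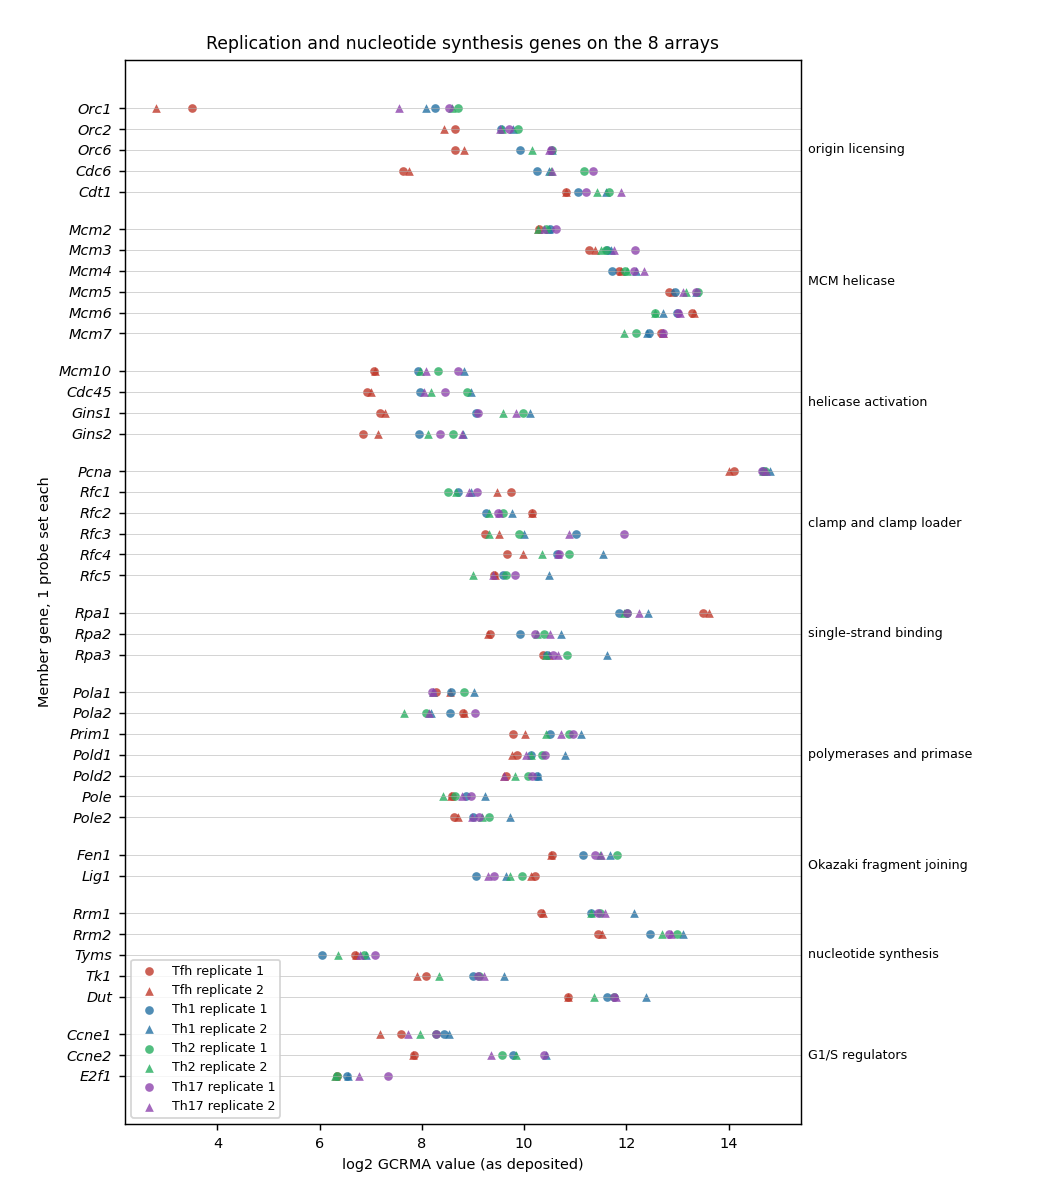
Deposited log2 GCRMA value of each gene (1 probe set per row, grouped by role) on each of the 8 arrays; colour is the cell type and shape the replicate. Both Tfh arrays lie left of all 6 cultured arrays for 24 of the 41 genes, furthest for Orc1 and Cdc6, and right of them for 5, among them Rpa1.

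Differences were also set beside those of genes at a similar level. Tested genes were grouped by mean level over the arrays, with bounds chosen after the values were seen. Below a level of 8, the 5 members had a median difference of -0.81 against 0.92 for all genes there. From 8 to 10 it was -0.56 for 17 members against 1.03, and from 10 to 12 it was -0.89 for 12 members against 0.63. At 12 and above, the 7 members had a median of -0.19 against 0.21, and 4 of the 7 lay below the median gene of that range. The gap to genes of like level was therefore narrowest among the most strongly hybridising members, which include Mcm6, Mcm7 and Rpa1.

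As deposited, origin licensing had the lowest median difference of any role (-1.63, against -1.45 for helicase activation), an order that turned after quantile normalization (-2.88 against -2.99). All 5 of its genes were lower on both Tfh arrays than on any cultured array, and 4 of the 5 were called lower. Values below are given for replicate 1 and then replicate 2 of each type. Orc1, the largest subunit of the origin recognition complex, read 3.50 and 2.79 in Tfh, 8.25 and 8.09 in Th1, 8.71 and 8.58 in Th2, and 8.53 and 7.55 in Th17. The groups were far apart, and the Tfh values straddled 3.13, the median of all deposited values, so the size of the fold is uncertain. The difference was -5.14 ± 0.33 (SE; adjusted p = 6.52e-05), and -5.98 once the median gene's difference was taken off. The second Orc1 probe set gave -2.79, so the direction did not depend on the probe set but the size did. Cdc6, which joins the origin complex to load the helicase, read 7.64 and 7.74 in Tfh, 10.25 and 10.49 in Th1, 11.17 and 10.53 in Th2, and 11.34 and 10.55 in Th17. No cultured array came within 2 log2 units of Tfh, and the difference was -3.03 ± 0.27 (SE; adjusted p = 0.000191), an 8.17-fold lower value.

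The other origin complex subunits followed at smaller size. Orc6 read 8.65 and 8.82 in Tfh, 9.92 and 10.54 in Th1, 10.54 and 10.16 in Th2, and 10.52 and 10.49 in Th17. Its groups did not overlap, with a difference of -1.63 ± 0.20 (SE; adjusted p = 0.00069). Orc2 read 8.64 and 8.44 in Tfh, 9.54 and 9.78 in Th1, 9.87 and 9.57 in Th2, and 9.71 and 9.52 in Th17. The 6 cultured arrays lay within 0.35 of each other and above both Tfh arrays (difference -1.13 ± 0.14, SE; adjusted p = 0.000851). The other Orc2 probe sets gave -0.33 and -2.54. Cdt1, the loader's second factor, read 10.81 and 10.81 in Tfh, 11.05 and 11.60 in Th1, 11.66 and 11.43 in Th2, and 11.20 and 11.90 in Th17. Its groups did not overlap, but the difference of -0.66 ± 0.23 was under the minimum of 1 (adjusted p = 0.0432), and a further measurable probe set gave 0.37.

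The helicase subunits Mcm2 to Mcm7 stood apart from the factors that load them. None of the 6 was called as deposited, and their median difference was -0.18, so all 6 lay below the median gene but close to no difference as deposited. Mcm5 read 12.84 and 12.91 in Tfh, 12.95 and 13.37 in Th1, 13.40 and 13.17 in Th2, and 13.37 and 13.10 in Th17 (difference -0.35 ± 0.15, SE; adjusted p = 0.0757). The Tfh arrays were lowest for Mcm5, but Tfh replicate 2 and Th1 replicate 1 nearly met. Mcm7 read 12.68 and 12.71 in Tfh, 12.45 and 12.40 in Th1, 12.18 and 11.96 in Th2, and 12.71 and 12.72 in Th17. Tfh and Th17 overlapped and Th2 was lowest. Mcm6 went the other way, at 13.29 to 13.32 in Tfh against 12.55 to 13.04 in culture, a difference of 0.49 ± 0.09 (SE; adjusted p = 0.00369) that was under the minimum size, and a second probe set gave 0.76. Mcm6 turned to -0.70 and Mcm7 to -0.90 when arrays were shifted to 1 median over the tested genes. Mcm2, Mcm3 and Mcm4 differed by -0.16, -0.40 and -0.19. Under that shift Mcm2, Mcm3, Mcm4 and Mcm5 were called lower (-1.36, -1.60, -1.38 and -1.54), and after quantile normalization Mcm2 and Mcm3 were (both -1.16). The median of the 6 was then -1.37 and -0.82. For Mcm3 the remaining probe sets all gave lower values in Tfh, from -0.57 to -2.41, and the second Mcm2 probe set gave -0.87. The Mcm3 probe set at -2.41 read 2.89 and 2.88 in Tfh, below the filter value of 3.13, so its size is uncertain.

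Helicase activation was lower throughout. All 4 of its genes were called lower with no overlap between Tfh and cultured arrays, and their median difference was -1.45. Gins1, a subunit of the GINS complex, read 7.19 and 7.27 in Tfh, 9.05 and 10.12 in Th1, 9.97 and 9.59 in Th2, and 9.10 and 9.85 in Th17 (difference -2.39 ± 0.34, SE; adjusted p = 0.00133). Gins2, its partner, read 6.85 and 7.15 in Tfh, 7.94 and 8.81 in Th1, 8.60 and 8.11 in Th2, and 8.35 and 8.79 in Th17. Its difference was -1.44 ± 0.30 (SE; adjusted p = 0.00612), which became 0.0582 without Tfh replicate 1. Cdc45, the factor that completes the active helicase, read 6.93 and 7.00 in Tfh, 7.96 and 8.96 in Th1, 8.89 and 8.18 in Th2, and 8.46 and 8.05 in Th17. The difference was -1.46 ± 0.33 (SE; adjusted p = 0.00887), and the adjusted p became 0.0636 and 0.056 without Tfh replicate 1 or 2. A second Cdc45 probe set, at 4.29 in Tfh and 4.30 in culture, gave -0.01. Mcm10, which stabilises the activated helicase, read 7.06 and 7.09 in Tfh, 7.93 and 8.83 in Th1, 8.32 and 7.96 in Th2, and 8.71 and 8.08 in Th17. Its difference was -1.23 ± 0.30 (SE; adjusted p = 0.0118), and the adjusted p became 0.0749 and 0.0707 without Tfh replicate 1 or 2. In these 4 genes the Tfh arrays differed from each other by less than the replicates of any cultured type did.

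**Figure D2:**
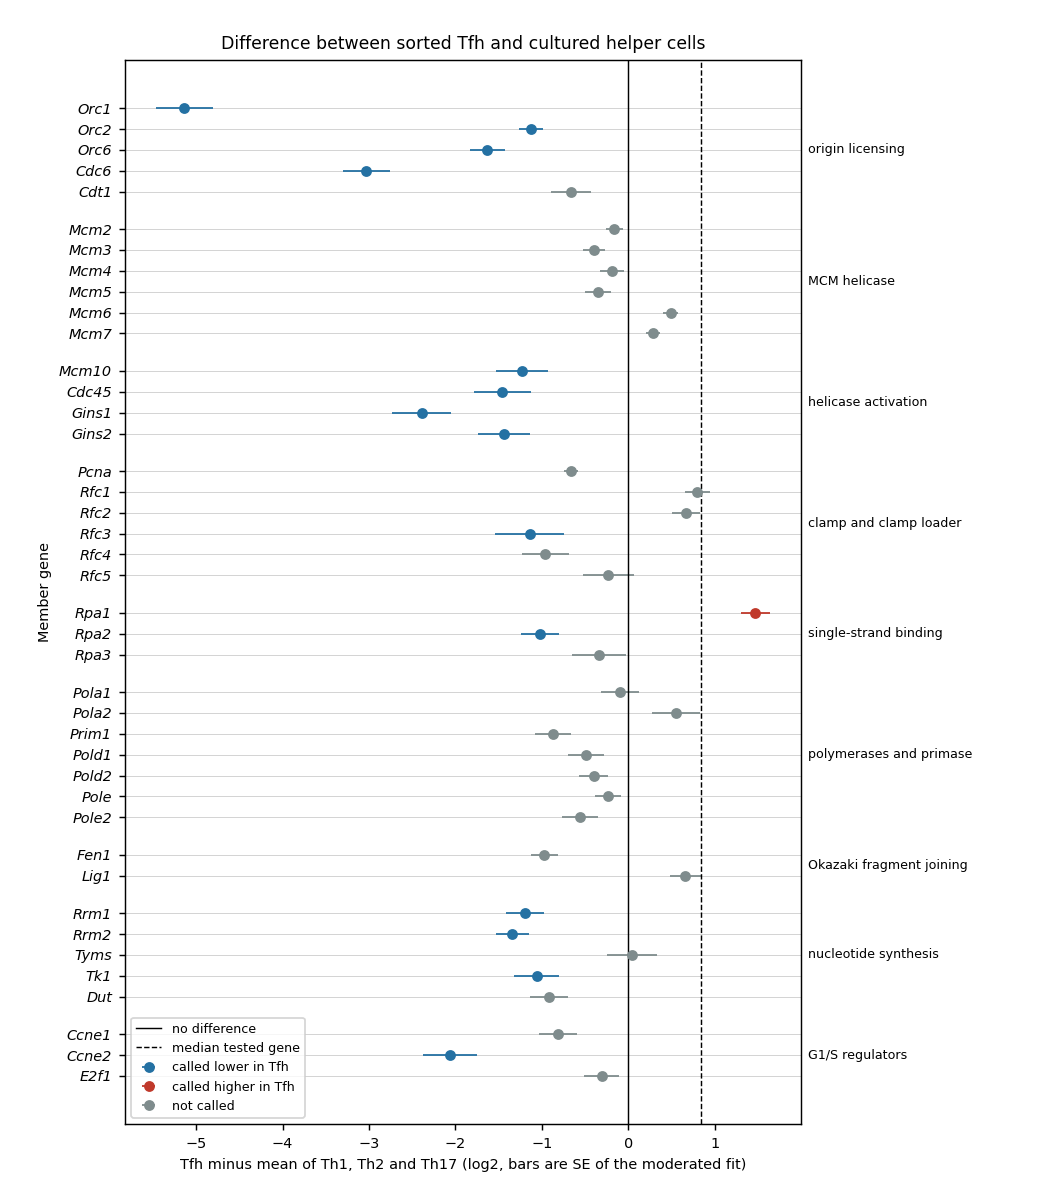
Difference of each gene between Tfh and the mean of the 3 cultured types (log2, bars are SE of the limma fit), coloured by call. The solid line is no difference and the dashed line the median tested gene at 0.84; 40 of the 41 genes lie left of the dashed line and 14 are called lower.

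The clamp and its loader were mixed. Pcna, the ring that holds polymerases on DNA, read 14.10 and 14 in Tfh, 14.68 and 14.81 in Th1, 14.72 and 14.68 in Th2, and 14.66 and 14.73 in Th17. The cultured arrays lay within 0.15 of each other and above both Tfh arrays, and the difference of -0.66 ± 0.08 (SE; adjusted p = 0.000525) was precise but under the minimum size. Among the loader subunits, Rfc1 and Rfc2 were above all cultured arrays, by 0.80 ± 0.14 and 0.67 ± 0.16 (SE), while Rfc4 was below them by -0.96 ± 0.27. The second Rfc4 probe set gave -1.07 and was called when the probe set with the largest SD stood for each gene (limma adjusted p = 0.0381). Both Rfc1 and Rfc2 turned negative after quantile normalization (-0.39 and -0.40), and the 3 Rfc1 probe sets ranged from -0.62 to 0.80. Rfc3 had the widest cultured range of all members: it read 9.23 and 9.51 in Tfh, 11.01 and 10.00 in Th1, 9.89 and 9.32 in Th2, and 11.96 and 10.87 in Th17. Th2 overlapped Tfh and Th17 was highest. The Rfc3 call (-1.14 ± 0.40, SE; adjusted p = 0.0421) was lost without either Tfh array (adjusted p = 0.202 and 0.12 without replicate 1 and 2), Th1 replicate 1 (0.061), Th2 replicate 1 (0.0838), Th2 replicate 2 (0.0529) or Th17 replicate 1 (0.0555). Rfc5 differed by -0.23 with overlapping groups.

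Replication protein A was the one complex whose subunits were called in opposite directions. Rpa1, its largest subunit, read 13.49 and 13.62 in Tfh, 11.85 and 12.43 in Th1, 12.01 and 11.95 in Th2, and 12.01 and 12.25 in Th17. The groups did not overlap, and the difference was 1.47 ± 0.17 (SE; adjusted p = 0.000525), a 2.77-fold higher value. Relative to the median gene it was 0.63 higher, and after shifting arrays over the tested genes it was 0.28 with an adjusted p of 0.206. A second Rpa1 probe set gave 1.90. Rpa2, the middle subunit, lay between 9.29 and 9.34 in Tfh and between 9.91 and 10.72 in culture (difference -1.02 ± 0.22, SE; adjusted p = 0.00782). As its size sat at the minimum, the Rpa2 call was lost without either Tfh array (adjusted p = 0.0519 and 0.0583 for replicates 1 and 2), and without Th1 replicate 2 (-0.88), Th17 replicate 2 (-0.97) or Th2 replicate 1 (just under 1 in size; adjusted p = 0.0216); its second probe set gave -0.31. Rpa3, the smallest, read 10.36 and 10.49 in Tfh, 10.44 and 11.63 in Th1, 10.83 and 10.43 in Th2, and 10.57 and 10.66 in Th17. Its groups overlapped, and Th1 replicate 2 stood above the other arrays.

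Polymerase and primase genes differed less. None of the 7 was called as deposited, with a median difference of -0.40, and Tfh lay below all cultured arrays for Prim1, Pold1 and Pole2. Prim1, the catalytic primase subunit, read 9.78 and 10.02 in Tfh, 10.51 and 11.12 in Th1, 10.87 and 10.42 in Th2, and 10.95 and 10.72 in Th17 (difference -0.87 ± 0.21, SE; adjusted p = 0.012). Pola2, a subunit of polymerase alpha, read 8.81 and 8.83 in Tfh, 8.55 and 8.17 in Th1, 8.08 and 7.65 in Th2, and 9.04 and 8.14 in Th17. Th17 replicate 1 alone exceeded Tfh, and the difference of 0.55 ± 0.28 (SE; adjusted p = 0.125) turned to -0.78 after quantile normalization. Pola1, the catalytic subunit of the same polymerase, differed by -0.10. The polymerase delta genes Pold1 and Pold2 differed by -0.49 and -0.40, and the polymerase epsilon genes Pole and Pole2 by -0.24 and -0.56. Of the 7, all but Pola2 were called lower after quantile normalization (-1.49 to -1.91) and after shifting over the tested genes (-1.29 to -2.06), and Prim1 also after shifting over all probe sets (-1.25). In Okazaki fragment joining, the flap nuclease Fen1 and the ligase Lig1 lay on opposite sides. Fen1 read 10.55 and 10.52 in Tfh, 11.15 and 11.67 in Th1, 11.82 and 11.49 in Th2, and 11.38 and 11.51 in Th17, below every cultured array (-0.97 ± 0.16, SE; adjusted p = 0.00273). Lig1 read 10.21 and 10.14 in Tfh, 9.05 and 9.65 in Th1, 9.95 and 9.72 in Th2, and 9.41 and 9.30 in Th17, above every cultured array as deposited (0.66 ± 0.18, SE; adjusted p = 0.0176) but at -0.40 after quantile normalization. Neither reached the minimum size.

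Nucleotide synthesis was lower in Tfh for ribonucleotide reductase and thymidine kinase, with 3 of its 5 genes called and a median difference of -1.06. Rrm2, the S phase subunit of ribonucleotide reductase, read 11.45 and 11.53 in Tfh, 12.46 and 13.11 in Th1, 12.99 and 12.69 in Th2, and 12.84 and 12.88 in Th17 (difference -1.34 ± 0.19, SE; adjusted p = 0.00116). Rrm1, the catalytic subunit, read 10.33 and 10.36 in Tfh, 11.30 and 12.14 in Th1, 11.49 and 11.30 in Th2, and 11.45 and 11.59 in Th17. Neither gene's groups overlapped, and Rrm1 differed by -1.20 ± 0.22 (SE; adjusted p = 0.00379); averaging its probe sets gave -0.55 and ended its call. Tk1, the cytosolic thymidine kinase, read 8.08 and 7.91 in Tfh, 8.99 and 9.61 in Th1, 9.11 and 8.34 in Th2, and 9.09 and 9.21 in Th17. Th2 replicate 2 came nearest to Tfh. The Tk1 call (-1.06 ± 0.26, SE; adjusted p = 0.0124) was lost without either Tfh array (adjusted p = 0.0591 and 0.0892 for replicates 1 and 2), and without Th1 replicate 2 or Th2 replicate 1, where the difference was -0.96 and -0.93. Dut, which removes dUTP, was below all cultured arrays by -0.92 ± 0.22. Thymidylate synthase, Tyms, differed by 0.04 ± 0.29 with overlapping groups, and a probe set shared between Tyms and the symbol Tyms-ps was not used.

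Of the G1/S regulators, Ccne2, which encodes cyclin E2, read 7.85 and 7.82 in Tfh, 9.78 and 10.43 in Th1, 9.56 and 9.84 in Th2, and 10.38 and 9.36 in Th17. The gap between the groups exceeded the spread within any of them, and the difference was -2.06 ± 0.31 (SE; adjusted p = 0.00169), a 4.17-fold lower value. Ccne1, encoding cyclin E1, was below all cultured arrays by -0.81 ± 0.22 and was not called; it passed without Tfh replicate 1 (adjusted p = 0.0426). E2f1, the transcription factor, differed by -0.31 ± 0.20 with Th2 at the Tfh level, whereas a second E2f1 probe set gave -2.83. That probe set read 3.04 and 4.01 in Tfh, on either side of the filter value of 3.13, so its size is uncertain. Over the whole group, 30 genes had a further measurable probe set, and all of a gene's probe sets shared their sign in 26 of them, among these all 11 called genes that had one. A shared sign did not mean a like size. Averaging a gene's probe sets ended the calls of Cdc45 (-0.73), Rpa2 (-0.66) and Rrm1 (-0.55). It added lower calls for Mcm3 (-1.21), Rfc4 (-1.02), Ccne1 (-1.03) and E2f1 (-1.13). The average also takes in probe sets under the filter value. For Rrm1 it includes a probe set at -0.07 that was below 3.13 on all 8 arrays.

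Tfh was next compared with each cultured type; these comparisons share the Tfh arrays. Of the 41, 16 were called lower and 1 higher against Th1 (6.16% and 42.8% of all tested genes), 13 lower and 2 higher against Th2 (6.89% and 42.8%), and 14 lower and 1 higher against Th17 (6.17% and 41.8%). Median differences were -0.70, -0.58 and -0.65. A set of 13 was called in the same direction in all 3: Rpa1 higher, and Ccne2, Cdc45, Cdc6, Gins1, Gins2, Mcm10, Orc1, Orc2, Orc6, Rpa2, Rrm1 and Rrm2 lower. Dut, Rfc4 and Ccne1 passed only against Th1, at -1.15, -1.26 and -1.09, with -0.70, -0.78 and -0.73 against Th2 and -0.92, -0.84 and -0.61 against Th17. Fen1 passed only against Th2 (-1.12, with -0.87 against Th1 and -0.91 against Th17), as did Rfc1 on the higher side (1.02, with 0.77 and 0.60, turning to -0.18 against Th2 after quantile normalization). Rfc3 passed only against Th17 (-2.04 ± 0.48, SE; adjusted p = 0.0122), with -1.13 against Th1 and -0.24 against Th2. Tk1 passed against Th1 and Th17 (-1.30 and -1.15) and not against Th2 (-0.72). A call against 1 type and not another does not show that the types differ; that was tested between the cultured types themselves. The number called against Th1 dropped from 17 to 10 without Tfh replicate 1, 9 without Tfh replicate 2 and 10 without Th1 replicate 2. Against Th2 it dropped from 15 to 9 without Tfh replicate 1 and 8 without Th2 replicate 1, and against Th17 from 15 to 8 and 9 without Tfh replicate 1 or 2.

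Among the cultured types themselves no member was called by limma. Of all tested genes, 0.349% were called higher and 0.895% lower in Th1 than Th2, 0.0626% and 0.0805% in Th1 than Th17, and 0.483% and 0.188% in Th2 than Th17. At an unadjusted p under 0.05, 3 members differed between Th1 and Th2, 1 between Th1 and Th17, and 5 between Th2 and Th17, where 15.7%, 9.72% and 13.5% of all tested genes did. These counts are no higher a share than that of all genes, so the values that follow are a description. The helicase subunit Mcm7 was in each of these sets, at 0.36 ± 0.10 for Th1 minus Th2, -0.29 ± 0.10 for Th1 minus Th17 and -0.65 ± 0.10 (SE; adjusted p = 0.0792) for Th2 minus Th17. Mcm6 followed it with 0.31 for Th1 minus Th2 and -0.47 for Th2 minus Th17, and Pole differed by 0.52 between Th1 and Th2. Between Th2 and Th17, Mcm3 differed by -0.40, E2f1 by -0.72 and Rfc3 by -1.81 ± 0.48 (SE; adjusted p = 0.198). Each of these 5 was lower in Th2 than in Th17.

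The members also differed between the replicates of a cultured type. In Th1, 35 of the 41 were higher in replicate 2 than in replicate 1, with a median of 0.56, where 55.2% of all tested genes were higher and the median was 0.02. In Th2, 4 of the 41 were higher in replicate 2 and 37 lower, where 42.7% of all tested genes were higher. The median was -0.27 against -0.01 over all genes. In Th17 17 were higher and 24 lower (median -0.13), where 45.3% of all tested genes were higher (median -0.02). Between the Tfh arrays 25 were higher and 16 lower (median 0.02), where 39.2% of all tested genes were higher (median -0.02). The largest replicate differences were 1.18 for Rpa3 in Th1, 0.77 for Tk1 in Th2, 1.09 for Rfc3 in Th17 and 0.71 for Orc1 in Tfh. Against each gene's mean over the 6 cultured arrays, the median member lay at -0.17 in Th1 replicate 1 and 0.28 in Th1 replicate 2, and at 0.06 and -0.21 in Th2 replicates 1 and 2. It lay at -0.61 and -0.66 on the Tfh arrays, below the lowest cultured array. Of all tested genes, 1435 differed by more than 1 log2 unit between the Th1 arrays, 696 in Th2, 1339 in Th17 and 11 in Tfh.

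**Figure D3:**
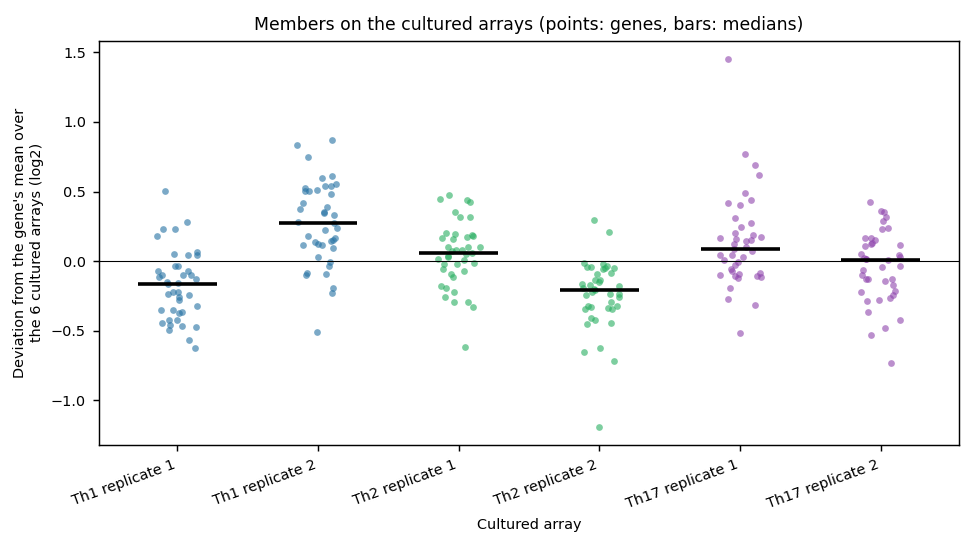
Deviation of each of the 41 genes from its own mean over the 6 cultured arrays (log2; points are genes spread sideways for visibility, bars are medians). Th1 replicate 2 sits highest, with 33 genes above their mean, and Th2 replicate 2 lowest, with 39 below.

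Other genes of the same pathways, outside the 41, were counted in the same way. Of 36 measured replication factors (37 listed), 2 were called lower and 2 higher in Tfh, where 6.66% and 43.7% of all tested genes were. Their median difference was 0.01, against 0.84 for the median gene, and 32 of the 36 lay below it. After quantile normalization 23 of the 36 were called lower and 1 higher (22.0% and 15.7% of all tested genes). The lower ones were Tipin, which works at the replication fork, at -1.76 ± 0.21 (SE; adjusted p = 0.000677), and Mcm8 at -1.51 ± 0.33. Mcm9, the partner of Mcm8 in DNA repair, was higher by 2.90 ± 0.15 (SE; adjusted p = 3.41e-05), at 8.31 and 8.29 in Tfh against 5.07 to 5.69 in culture, and Donson by 1.91 ± 0.14. Tipin, Mcm8 and Mcm9 held under all 4 scalings and Donson did not.

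In nucleotide metabolism outside the 41, 5 of 29 measured genes (31 listed) were called higher and 4 lower, again beside 43.7% and 6.66% of all tested genes. The median was -0.47 against 0.84 for the median gene, and quantile normalization gave 3 higher and 17 lower (15.7% and 22.0% of all tested genes). The higher ones were Tk2, Dck, Samhd1, Dguok and Rrm2b, of which Tk2, Dck and Dguok are kinases that salvage deoxynucleosides. Mitochondrial thymidine kinase Tk2 rose by 3.72 ± 0.23 (SE; adjusted p = 5.59e-05), with 9.64 and 9.76 in Tfh and 5.72 to 6.40 in culture, and deoxycytidine kinase Dck by 3.03 ± 0.38. Samhd1, which breaks down deoxynucleotides, was higher by 2.74 ± 0.58. Of these, Tk2 and Dck held under all 4 scalings. The lower ones held under all 4 and were the folate enzymes Shmt1 (-1.97 ± 0.28) and Mthfd1 (-1.19 ± 0.17), the nucleoside diphosphate kinase Nme1 (-1.70 ± 0.12) and the deoxycytidylate deaminase Dctd (-1.56 ± 0.25). Tk1 and Tk2, the cytosolic and the mitochondrial thymidine kinase, therefore lay on opposite sides.

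Among 26 further G1/S regulators, 8 were called higher and 2 lower, where 43.7% and 6.66% of all tested genes were, so the higher share was below that of all genes. The median was -0.33 against 0.84, and quantile normalization gave 2 higher and 13 lower (15.7% and 22.0% of all tested genes). The inhibitor Cdkn1b (p27) was higher by 4.16 ± 0.30 (SE; adjusted p = 9.76e-05), at 12.51 and 12.61 in Tfh against 7.68 to 9.31 in culture, and it was the one of the 8 that held under all 4 scalings. E2f4, an E2F that mainly represses, followed at 2.35 ± 0.29 and the retinoblastoma gene Rb1 at 2.11 ± 0.26. The lower ones were cyclin D2, Ccnd2, at -1.57 ± 0.15 (SE; adjusted p = 0.000262), and the phosphatase Cdc25a at -1.38 ± 0.13, both under all 4 scalings. Of 14 measured mitosis genes (15 listed), Cdk1 (-1.23 ± 0.28) and Cdc20 (-1.10 ± 0.29) were called lower under all 4 scalings and none higher. The median of the 14 was 0.19 against 0.84 for the median gene, and 6 were called lower after quantile normalization (22.0% of all tested genes). No gene of these lists was called between cultured types.

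**Figure D4:**
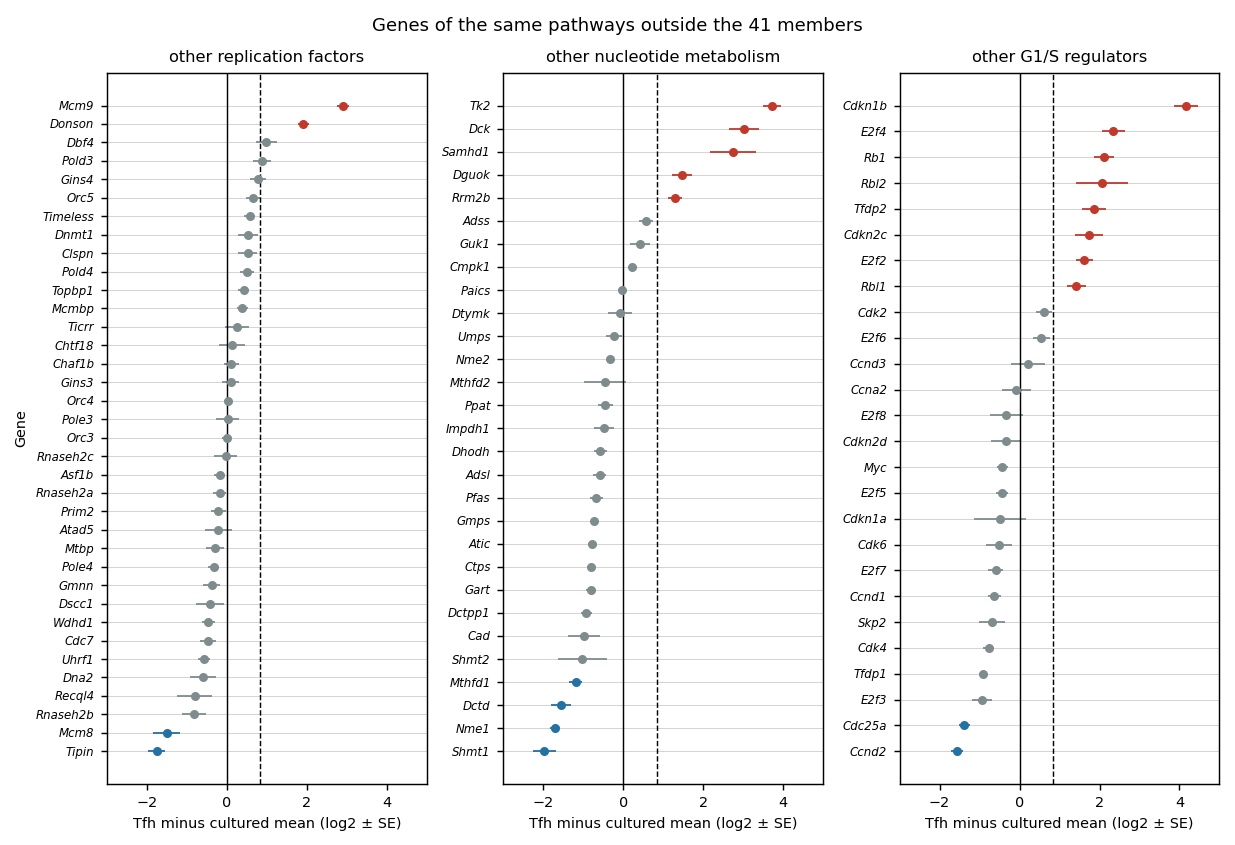
Difference between Tfh and the cultured mean (log2 ± SE) for replication, nucleotide metabolism and G1/S genes outside the 41; red points were called higher, blue lower, grey not called, and the dashed line is the median tested gene at 0.84. Mcm9, Tk2, Dck and Cdkn1b lie furthest right, and Tipin, Shmt1 and Ccnd2 furthest left in their panels.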

How the data were processed

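The authors deposited log2 values summarized per probe set with GCRMA, per the submitters' processing notes; its version and the set of arrays normalized together are not given in the sources used here. GCRMA corrects background from probe sequence and normalizes between arrays, and the shifted Tfh distribution bears on every difference between Tfh and the cultured cells. Values were used as deposited. Of 45101 probe sets, 34945 had 1 gene symbol and were used; 932 with several symbols, 9160 with none and 64 controls were left out. Genes exceeding 3.13 (50th percentile over the whole table) on at least 2 arrays entered the fit in limma 3.58.1 under R 4.3.3 (1 coefficient per group over 8 arrays, empirical Bayes with trend, 4 residual and 1.78 prior degrees of freedom, two-sided), adjusted by Benjamini-Hochberg over 11178 genes. Only 2 arrays per group limit the precision. The 4 scalings were as deposited, quantile normalization, and shifts to 1 median over all probe sets or over tested genes. The genes, role groups, pathway and marker lists were chosen with earlier results of these data known. All 41 genes could be named by role; values on each array were given for the 14 called genes with the largest differences and, in each role, for the gene with the highest mean and that with the widest cultured range. From each pathway list, up to 3 called genes each way were named, plus those needed for a complete count. Calling was also run on simulated data without a shift of the Tfh arrays, so that run does not bear on the shift. Python 3.11.15 with matplotlib 3.10.9 drew the figures.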

Additional observations from a re-analysis of the deposited data

How the results depend on the processing

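Of the 15 members called against the cultured mean, Ccne2, Cdc6, Gins1, Orc1, Orc2, Orc6 and Rrm2 kept their call under all 19 alternatives. Where no share of all tested genes stands beside a count below, the count describes the setting and is no result about the members. The number called was 32 after quantile normalization (31 lower and 1 higher, against 22.0% and 15.7% of all tested genes). It was 34 after a shift over the tested genes (34 lower and 0 higher, against 28.9% and 14.8%). With no minimum fold it was 28 (22 lower and 6 higher). Against Th1 it was 31 and 33 under those scalings and 9 with the Tfh arrays averaged as 1 replicate; against Th2, 31 and 34; and against Th17, 33 and 34, with 24 after a shift over all probe sets, 24 with no minimum fold and 8 with Tfh averaged. Leaving out 1 array gave 10 to 17 against the cultured mean, 9 to 22 against Th1, 8 to 15 against Th2, 8 to 15 against Th17 and 0 to 0 between cultured types.

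Signs turned for members not called against the cultured mean, and for Rfc1 against Th2, where it was called. A shift over the tested genes gave -0.70 for Mcm6, -0.90 for Mcm7, -0.40 for Rfc1 (-0.19 against Th2), -0.52 for Rfc2, -0.64 for Pola2, -0.53 for Lig1 and -1.16 for Tyms. Quantile normalization gave -0.23 for Mcm7, -0.39 for Rfc1 (-0.18 against Th2), -0.40 for Rfc2, -0.78 for Pola2, -0.40 for Lig1 and -1.59 for Tyms. A shift over all probe sets gave -0.10 for Mcm7 and -0.35 for Tyms. Tyms was also -0.04 and -0.27 with other probe set choices and ran from -0.11 to 0.18 when 1 array was left out, turning without Th1 replicate 1, Th2 replicate 2 (-0.05) or Th17 replicate 2 (-0.02). Pola1 ran from -0.24 to 0.04, turning without Tfh replicate 1 or Th2 replicate 1 (0.0013). The cause was not tested.

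With the replicate number as a block, 15 members were called against the cultured mean and 18, 14 and 14 against Th1, Th2 and Th17. Deviations of same-numbered arrays correlated at -0.002 to 0.268 between groups, so the numbers were not taken as a pairing. The filter on low values and the variance trend changed no member's call against the cultured mean.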
